A study of Mus musculus with 56 samples.

Results

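Cortical thymic epithelial cells (cTECs) sorted on day 12 postpartum (D12) were compared with cTECs sorted on day 6 (D6), with 3 samples at each time point. These 6 samples were taken by their labels from 28 cTEC samples and 56 samples in all, and each came from the thymus of 1 mouse. The females were B.6SJL-Ptprca Pep3b/BoyJ-CD45.1 (B6.SJL) mice that had been mated with BALB/cJ males. Their pups were taken away at birth, so both groups had given birth and neither was nursing, and their age is not given in the sources used here. Thymi were digested with papain, DNase and collagenase IV, EpCAM+ cells were enriched on beads, and cTECs were sorted as EpCAM+CD45-UEA1- cells. Poly-A RNA was sequenced, and levels are given as FPKM (reads scaled to transcript length and library size), with the values of a group in the order of replicates 1, 2 and 3. Single cTEC samples of D8 and D10 are given as in-between values without replicate error, and medullary cells (mTECs) of D6 and D12, also 3 samples each, as a second cell type.

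cTECs line the outer thymus, where they attract lymphoid progenitors, commit them to the T cell lineage and present peptides for positive selection. The transcription factor FOXN1 maintains their differentiation and drives many of the genes they need for this, among them the chemokine Ccl25, the Notch ligand Dll4 and the thymoproteasome subunit Psmb11. After birth the shrunken thymus of the mother grows back, and the comparison asks how cTECs differ between these 2 time points of the regrowth.

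The labelled cell type was visible in every sample. The 9 cTEC markers summed to 14094, 15612 and 14694 FPKM at D6 and to 14104, 13122 and 13491 FPKM at D12, against 1265 to 6572 FPKM in the mTEC samples of both days. Total expected counts, the number of fragments assigned to genes, ranged from 9562848 to 29884406 at D6 and from 6470058 to 40369914 at D12. D6 replicate 3 stood apart: 1.16% of its counts came from the mitochondrial genome against 2.40% to 3.02% in the other 5 samples, and it had 3071 FPKM of Fos, an immediate-early gene, against 655 to 1189 FPKM. Of the 28 cTEC samples, 3 others (NPC 3, D16 and D28) shared this profile, and list medians that moved by over 1.5 times without D6 replicate 3 are given with and without it. When every library was drawn down to 6456109 counts, 14223, 14246 and 15189 genes were detected at D6 and 15167, 14822 and 15286 at D12. The groups overlapped in the number of genes detected only through D6 replicate 3, and D6 replicates 1 and 2 lay below all 3 D12 samples.

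Few genes separated D12 from D6. Of 15845 genes tested with limma-voom, 1 passed the threshold of a Benjamini-Hochberg adjusted p of 0.05 (0.00631% of genes tested), and it rose. At an unadjusted p under 0.05 there were 1683 genes (10.6%), of which 1048 were higher (6.61%) and 635 lower (4.01%) at D12. The 3 samples of each day did not overlap in FPKM for 3025 genes (19.1%), 1470 of them higher at D12 (9.28%) and 1555 lower (9.81%). Overlap was scored on FPKM, which is also scaled to transcript length, while p and fold change came from counts with a scaling between libraries. The 2 measures can disagree for single genes. Npas2, for one, had 10.1 ± 1.37 FPKM at D6 and 4.96 ± 1.22 FPKM at D12 (SD, n = 3), but a log2 fold change of -0.236. The cause of such gaps was not tested. The median log2 fold change over all genes was 0.075 after the scaling, which centres most genes near 0. No gene (0%) passed a fold of 2 with an adjusted p of 0.01. Because 1 gene passed, every other gene below is given by its values and its adjusted p from limma-voom. The count of a gene list is to be read against these shares of all genes.

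**Figure D1:**
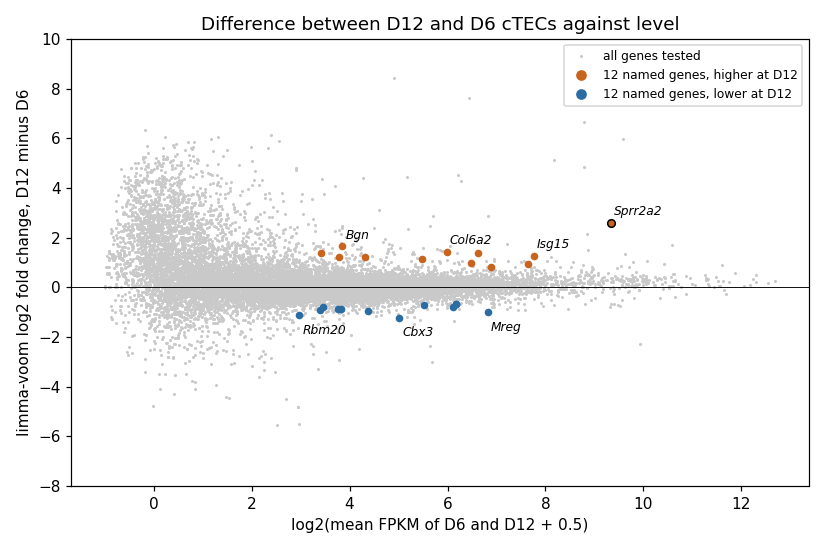
Log2 fold change of D12 against D6 cTECs (limma-voom, vertical axis) against the log2 of the mean FPKM of both days plus 0.5 (horizontal axis, log2 scale) for the 15845 genes tested. Orange and blue points are the 12 named genes with higher and the 12 with lower values at D12, and the black outline marks Sprr2a2, the only gene with an adjusted p of at most 0.05. Sprr2a2 lies at 2.60, above the other named genes.

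The gene that rose was Sprr2a2, which encodes a small proline-rich protein of the cornified envelope of stratified epithelia. Its level was 124, 189 and 215 FPKM at D6 and 615, 803 and 1947 FPKM at D12. The D8 sample read 419 FPKM and the D10 sample 1013 FPKM. All 3 D12 samples lay above all 3 D6 samples, with D12 replicate 3 far above the other two. The log2 fold change was 2.60 (SE 0.35, limma-voom adjusted p = 0.0116). On simulated data this fit made more false calls than its threshold allows, so the adjusted p may be too small. Sprr2a2 lies on chromosome 3 of GRCm38 (chr3:92215920-92256724, forward strand) and overlaps Sprr2a1 in the annotation. Reads of the near-identical Sprr2a copies may be split between them, so the assignment to 1 copy is uncertain. Sprr2a3, looked at after its values were seen, had 11.9, 11.1 and 12.6 FPKM at D6 and 31.6, 43.5 and 107 FPKM at D12 (adjusted p = 0.232). Without D6 replicate 3 the adjusted p of Sprr2a2 was 0.0655, and without D6 replicate 1 it was 0.095, with log2 fold changes of 2.69 and 2.36. Sprr2a2 also rose in mTECs, from 457 ± 192 FPKM at D6 to 1522 ± 183 FPKM at D12 (SD, n = 3). Its mTEC log2 fold change was 1.85 (limma-voom adjusted p = 0.0283). The difference between cTECs and mTECs was 0.82 (SE 0.54, limma-voom adjusted p = 0.89).

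**Figure D2:**
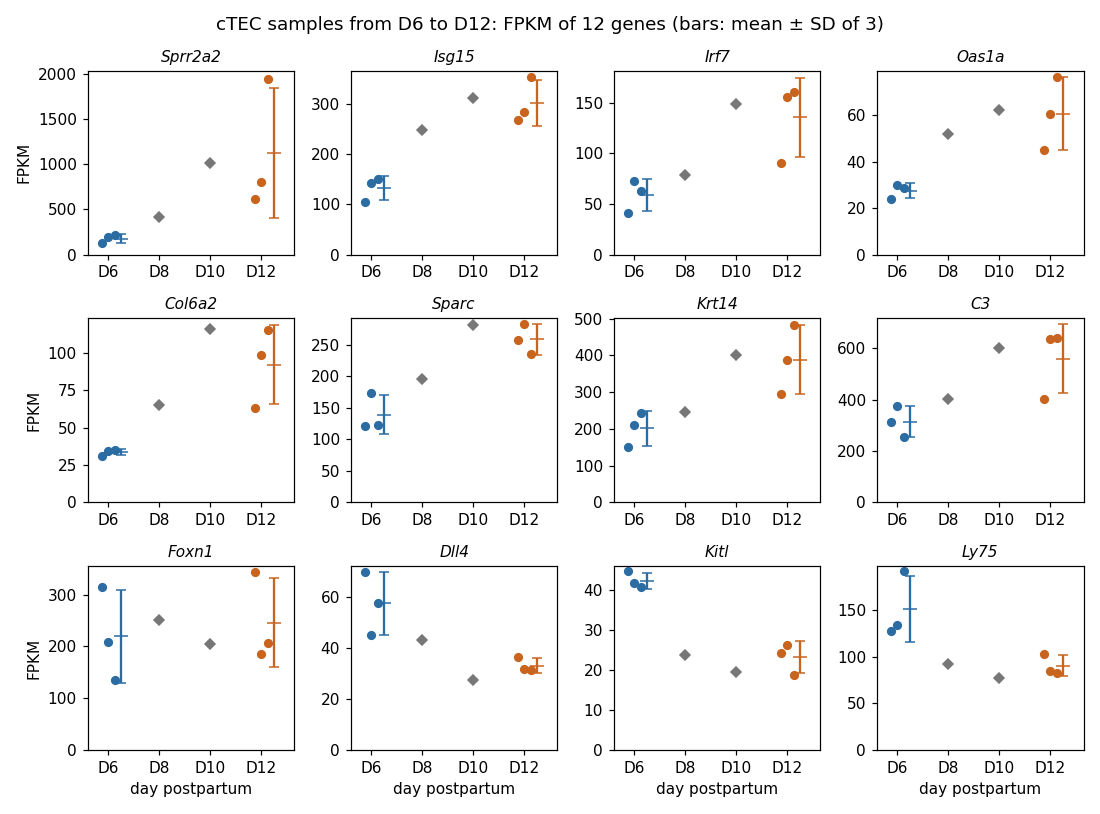
FPKM (vertical axes, from 0) of 12 genes in single cTEC samples by day postpartum (horizontal axes). Blue and orange points are the 3 samples of D6 and of D12, grey diamonds the single samples of D8 and D10, and the bars beside the groups give mean ± SD (n = 3). Sprr2a2, the 3 interferon-stimulated genes, Col6a2, Sparc, Krt14 and C3 lie higher at D12, Dll4, Kitl and Ly75 lie lower, and the Foxn1 values of both days overlap.

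Transcription factors of thymic organogenesis had like levels on both days. Foxn1 had 314, 209 and 135 FPKM at D6 and 344, 186 and 207 FPKM at D12 (log2 fold change 0.23, SE 0.35, adjusted p = 0.89). The D6 and D12 values overlapped over nearly their whole range, and single values at D8 (250 FPKM) and D10 (204 FPKM) lay inside it. Pax1, a factor needed for thymus formation, had 434 to 771 FPKM at D6 and 588 to 872 FPKM at D12 (adjusted p = 0.847). Tbata, a cTEC gene that restrains epithelial proliferation, had 3068 to 3628 FPKM at D6 and 2941 to 3077 FPKM at D12 (adjusted p = 0.916). Pax9 was lower in each D12 sample, at 30.2, 29.2 and 30.9 FPKM against 41.2, 31.7 and 57.2 FPKM (adjusted p = 0.487). Of the 11 factors listed, 0 passed the test and the median log2 fold change was -0.13, which was -0.07 without D6 replicate 3 and -0.21 without D12 replicate 1. At an unadjusted p under 0.05 there was 1, Tbx1, higher at D12 (6.61% of all genes) but under 4 FPKM in every sample from D6 to D12.

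Of the signals that cTECs send to thymocytes, none passed the test, and 4 of those below had lower values at D12. Dll4, the ligand that commits progenitors to the T lineage through Notch1, had 69.9, 45.1 and 57.8 FPKM at D6, 43.2 at D8, 27.6 at D10 and 36.4, 31.7 and 31.3 FPKM at D12. Every D12 value lay below every D6 value (57.6 ± 12.4 against 33.1 ± 2.81 FPKM, SD, n = 3), with a log2 fold change of -0.73 (SE 0.17, limma-voom adjusted p = 0.154). Kitl, the stem cell factor that sustains early progenitors, had 44.8, 41.7 and 40.9 FPKM at D6, 23.8 and 19.5 FPKM at D8 and D10, and 24.4, 26.4 and 18.8 FPKM at D12 (log2 fold change -0.68, adjusted p = 0.156). The D8 and D10 samples of Kitl were already in the range of D12. Dll1 and Jag2, further Notch ligands, were also lower in all 3 D12 samples, at 13.7 to 16.8 against 18.2 to 44.0 FPKM and 70.1 to 86.2 against 91.2 to 129 FPKM (adjusted p = 0.724 and 0.406). Without D6 replicate 3 the log2 fold change of Dll1 went from -0.44 to -0.20.

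Chemokines and interleukin 7 showed smaller differences. Ccl25, which draws progenitors into the thymus through CCR9, had 3774, 3543 and 2438 FPKM at D6 and 3818, 3391 and 3720 FPKM at D12 (adjusted p = 0.881). Cxcl12, the ligand of CXCR4 and a FOXN1 target, had 857, 1099 and 1111 FPKM at D6 and 896, 728 and 652 FPKM at D12 (log2 fold change -0.42, adjusted p = 0.308), with overlap at D6 replicate 1. Il7, the survival factor of early thymocytes, had 109 to 128 FPKM at D6 and 90.0 to 107 FPKM at D12 (adjusted p = 0.698). Ccl25 and Cxcl12 overlapped between the days, while Il7 was lower in all 3 D12 samples. Ccl21a, a CCR7 ligand made mainly by medullary cells, had 1753, 2478 and 2258 FPKM at D6 and 2754, 4193 and 5351 FPKM at D12 (log2 fold change 0.91, adjusted p = 0.186). Its near-identical copies make the assignment of its reads uncertain, and its level in the mTEC samples of D6 was 11662 ± 1224 FPKM. Over the 13 tested chemokines, cytokines and Notch ligands the median was -0.24, and 0 were called. At an unadjusted p under 0.05, 2 genes were higher and 4 lower (6.61% and 4.01% of all genes). Without overlap 2 were higher and 5 lower (9.28% and 9.81% of all genes). The median was -0.48 without D6 replicate 1.

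Peptide-processing and surface genes of cTECs were lower or level at D12. Prss16, the thymus-specific serine protease for MHC class II peptides, had 2564, 3046 and 2925 FPKM at D6 and 3065, 2589 and 2551 FPKM at D12 (adjusted p = 0.997). Psmb11, the catalytic subunit of the thymoproteasome, had 446, 377 and 223 FPKM at D6 and 397, 249 and 296 FPKM at D12 (adjusted p = 0.968). The values of both genes overlapped between the days. Ctsl, the lysosomal protease cathepsin L, had 3151, 3804 and 4048 FPKM at D6 and 2670, 3061 and 3146 FPKM at D12, without overlap by a margin of a few FPKM (adjusted p = 0.584). Ly75, the endocytic receptor DEC-205, had 128, 134 and 191 FPKM at D6, 92.1 and 76.9 FPKM at D8 and D10, and 103, 85.0 and 82.7 FPKM at D12 (log2 fold change -0.69, SE 0.21, adjusted p = 0.26). Cd83, which stabilises MHC class II on cTECs, had 188 to 246 FPKM at D6 and 148 to 210 FPKM at D12 (adjusted p = 0.88). Of the 9 genes of this list 8 had a log2 fold change below 0 and 0 were called, and the median was -0.20 (-0.32 without D12 replicate 3). At an unadjusted p under 0.05, 1 (Ly75) was lower (4.01% of all genes), and 2 were lower without overlap (9.81%).

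MHC class II genes had values that leaned towards D12 by a small amount. All 12 tested genes had a log2 fold change above 0 (median 0.25, against 0.075 for all genes), and 0 were called. At an unadjusted p under 0.05, 4 were higher (6.61% of all genes), and 6 were higher without overlap (9.28%). The invariant chain Cd74, which guides class II molecules to the endosome, had 6066, 6693 and 5544 FPKM at D6 and 6965, 7279 and 7023 FPKM at D12 (log2 fold change 0.25, adjusted p = 0.344). H2-Eb1, a class II beta chain, had 1450, 1675 and 1323 FPKM at D6 and 1694, 1822 and 1701 FPKM at D12 (adjusted p = 0.395). For both, the lowest D12 sample exceeded the highest D6 sample, narrowly for H2-Eb1. H2-Oa, part of the H2-O modulator of peptide exchange, had 72.3, 98.0 and 63.7 FPKM at D6 and 109, 110 and 111 FPKM at D12 (log2 fold change 0.50, adjusted p = 0.387). H2-Aa ranged from 2342 to 3508 FPKM at D6 and from 3260 to 3599 FPKM at D12, and H2-Ab1 from 2492 to 3159 and from 2974 to 3292 FPKM, both with overlap. Without D6 replicate 3, which was the lowest sample for Cd74, H2-Eb1, H2-Oa, H2-Aa and H2-Ab1, the list median was 0.14.

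In the MHC class I and immunoproteasome list 12 of 15 genes had a log2 fold change above 0 (median 0.30), and 0 were called. At an unadjusted p under 0.05 there were 7, all higher at D12 (6.61% of all genes). B2m, the light chain of class I molecules, had 2988, 3636 and 2548 FPKM at D6, 3362 at D8, 4830 at D10 and 3955, 4343 and 5104 FPKM at D12 (log2 fold change 0.58, SE 0.16, adjusted p = 0.197). Psmb8, an interferon-inducible proteasome subunit, had 194, 194 and 116 FPKM at D6 and 240, 252 and 262 FPKM at D12 (log2 fold change 0.67, adjusted p = 0.231, and 0.40 without D6 replicate 3, the lowest sample). Calr, the chaperone calreticulin of the class I loading complex, had 526, 454 and 365 FPKM at D6 and 597, 699 and 571 FPKM at D12 (log2 fold change 0.58, adjusted p = 0.183). In these 3 genes D12 lay above D6 in every sample. The other inducible subunits Psmb9 (306 to 390 against 362 to 442 FPKM) and Psmb10 (491 to 826 against 821 to 978 FPKM) overlapped between the days. Tap2, a subunit of the peptide transporter, went the other way, at 129 to 142 FPKM at D6 and 120 to 126 FPKM at D12 (adjusted p = 0.929). The list median was 0.22 without D6 replicate 3 and 0.19 without D6 replicate 1.

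Most interferon-stimulated genes had higher values at D12, but none passed the test. Type I and type III interferons induce these genes through a repeat of GAAA in their promoters. Of the 20 listed genes 18 had a log2 fold change above 0 (median 0.62), and 0 were called. At an unadjusted p under 0.05, 12 were higher and 1 lower (6.61% and 4.01% of all genes). Without overlap 13 were higher and 1 lower (9.28% and 9.81% of all genes). Isg15, a ubiquitin-like modifier, had 105, 142 and 150 FPKM at D6, 248 at D8, 311 at D10 and 267, 284 and 353 FPKM at D12. All 5 samples from D8 to D12 lay above the 3 D6 samples, and the log2 fold change between the groups was 1.25 (SE 0.23, adjusted p = 0.0745). Irf7, which amplifies interferon production, had 41.1, 72.5 and 63.2 FPKM at D6, 78.3 at D8, 149 at D10 and 90.8, 156 and 161 FPKM at D12 (log2 fold change 1.37, SE 0.25, adjusted p = 0.0745). The smallest D12 value of Irf7, in replicate 1, was still above the highest D6 value.

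Other members of the response had the same order. Oas1a, which senses double-stranded RNA and activates RNase L, had 24.1, 29.9 and 28.8 FPKM at D6, 52.0 at D8, 62.5 at D10 and 45.3, 60.5 and 76.7 FPKM at D12 (log2 fold change 1.13, adjusted p = 0.149). Oas3, a related synthetase outside the list, had 5.28, 5.15 and 5.00 FPKM at D6 and 10.1, 15.2 and 20.4 FPKM at D12 (log2 fold change 1.38, adjusted p = 0.149). In both, D12 replicate 1 was the lowest and D12 replicate 3 the highest of the D12 samples. Oasl2 ranged from 366 to 391 FPKM at D6 and from 501 to 534 FPKM at D12 (log2 fold change 0.48, adjusted p = 0.189). Bst2 (tetherin), which holds viruses at the cell surface, had 39.1, 96.5 and 90.1 FPKM at D6 and 111, 170 and 151 FPKM at D12 (log2 fold change 1.06, adjusted p = 0.232). Usp18, Ifi44, Ifit1 and Xaf1 were likewise higher in all 3 D12 samples, with log2 fold changes of 0.62, 0.61, 0.83 and 0.64. Irf1, a factor that immediate-early signals also induce, was the 1 gene lower without overlap, at 238, 261 and 647 FPKM at D6 and 208, 152 and 225 FPKM at D12 (log2 fold change -0.70, adjusted p = 0.433, and -0.32 without D6 replicate 3). Cxcl10, a chemokine induced by interferon gamma, was the other gene below 0, at 241, 227 and 1528 FPKM at D6 and 220, 148 and 329 FPKM at D12 (log2 fold change -0.69, adjusted p = 0.68). D6 replicate 3 was the highest sample for both genes, and the sums of Interferon-stimulated genes overlapped, at 2144, 2228 and 4157 FPKM at D6 and 2927, 3087 and 3672 FPKM at D12. The list median was 0.62 without D6 replicate 3 and 0.63 without all 4 libraries that stood apart. In non-pregnant cTECs Isg15 read 277 ± 71.6 FPKM and Irf7 135 ± 31.0 FPKM (SD, n = 3), in the range of D12.

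The promoters of 4 of these genes are shown because their D6 and D12 values did not overlap and they differ in the interferon motif. Each sequence holds the 140 bases before the RefSeq start of the gene on the coding strand of GRCm38.p6. Capitals mark matches to GAAANNGAAA, where N is any base, or to its reverse complement TTTCNNTTTC. The windows lie at chr4:156200819-156200958 (Isg15), chr5:120907526-120907665 (Oas1a), chr8:71537473-71537612 (Bst2) and chr7:141266425-141266564 (Irf7), all on the reverse strand.
Isg15: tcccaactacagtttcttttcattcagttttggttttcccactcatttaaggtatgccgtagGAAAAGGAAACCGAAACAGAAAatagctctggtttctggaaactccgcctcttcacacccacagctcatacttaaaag
Oas1a: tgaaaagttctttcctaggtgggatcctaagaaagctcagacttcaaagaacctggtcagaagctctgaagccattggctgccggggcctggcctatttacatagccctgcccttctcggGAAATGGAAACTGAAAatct
Bst2: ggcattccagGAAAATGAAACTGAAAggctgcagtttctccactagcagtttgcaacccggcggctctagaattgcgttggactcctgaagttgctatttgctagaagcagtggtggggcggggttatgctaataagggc
Irf7: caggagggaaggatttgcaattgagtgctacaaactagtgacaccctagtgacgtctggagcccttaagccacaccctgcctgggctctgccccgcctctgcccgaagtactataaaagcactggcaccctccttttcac
Isg15 held 3 overlapping matches, which began 78, 72 and 66 bases before the start, Oas1a 2 (20 and 14 bases) and Bst2 2 (130 and 124 bases). Irf7 held none in this window, but in the annotation used for gene coordinates Irf7 starts inside the window, at chr7:141266481. Over the 250 bases before the start, on both strands, 978 of 32851 promoter windows held the motif (2.98%), as did 9 of the 17 listed interferon-stimulated genes that have a window (52.9%), the others being Ifit1, Ifit3, Stat2, Gbp2, Rsad2 and Cxcl10. The share over all promoters counts every window, while each listed gene was scored by its first window (Irf1 and Irf9 have 2). A match is a description of these letters and does not show binding.

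**Figure D3:**
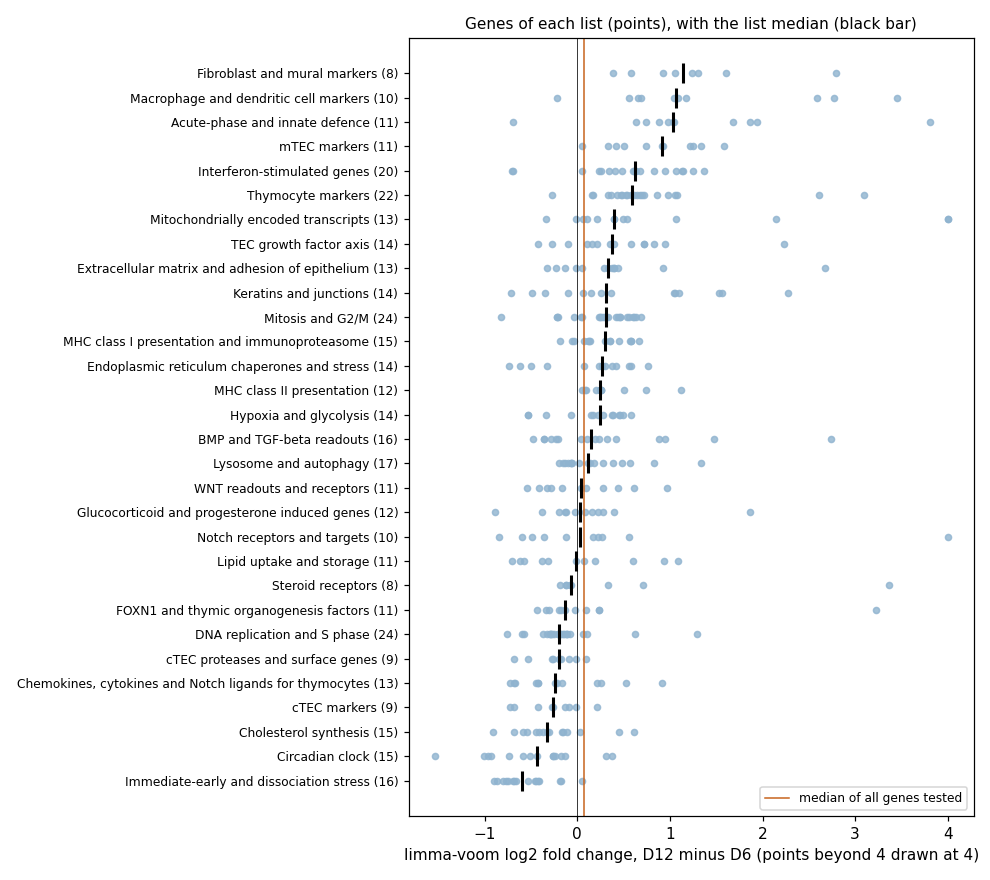
Log2 fold changes of D12 against D6 cTECs (limma-voom, horizontal axis) for the tested genes of 30 lists with at least 8 tested genes (blue points, number in brackets) and the median of each list (black bars), ordered by the median. The orange line is the median of all genes tested, 0.075, and values beyond 4 are drawn at 4. Immediate-early, clock and cholesterol genes lie lowest, and markers of fibroblasts, macrophages and mTECs, acute-phase genes and interferon-stimulated genes highest.

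The 12 named higher genes included several of the extracellular matrix. Col6a2, a chain of the microfibrillar collagen VI, had 31.1, 34.0 and 35.1 FPKM at D6, 64.8 at D8, 116 at D10 and 62.8, 98.3 and 115 FPKM at D12 (log2 fold change 1.44, SE 0.24, adjusted p = 0.0745). Sparc, a collagen-binding matricellular protein, had 121, 174 and 122 FPKM at D6, 195 at D8, 281 at D10 and 258, 283 and 235 FPKM at D12 (log2 fold change 0.93, SE 0.16, adjusted p = 0.0745). For both genes the D8 and D10 samples lay above all 3 D6 samples. Bgn, a small leucine-rich proteoglycan, had 6.98, 5.36 and 8.80 FPKM at D6 and 15.9, 28.6 and 17.8 FPKM at D12 (log2 fold change 1.65, adjusted p = 0.149). Tgfbi, a matrix protein induced by TGF-beta, had 11.2, 11.4 and 12.65 FPKM at D6 and 19.8, 24.3 and 37.1 FPKM at D12 (adjusted p = 0.149). In the list of epithelial matrix and adhesion genes 9 of 13 had a log2 fold change above 0 (median 0.33), and 0 were called. At an unadjusted p under 0.05 there were 3, all higher (6.61% of all genes).

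Secreted growth factor antagonists and a membrane protein completed the named higher genes. Fst (follistatin), which binds activins, had 8.69, 6.65 and 9.97 FPKM at D6 and 17.3, 19.1 and 18.0 FPKM at D12 (log2 fold change 1.23, SE 0.23, adjusted p = 0.0745). Igfbp4, an inhibitor of insulin-like growth factors, had 91.7, 88.1 and 76.0 FPKM at D6 and 150, 159 and 143 FPKM at D12 (log2 fold change 0.83, adjusted p = 0.149). Both had narrow groups that did not overlap. Shisa5, a membrane protein of the endoplasmic reticulum, had 46.1, 90.8 and 54.3 FPKM at D6, 120 and 130 FPKM at D8 and D10, and 104, 115 and 123 FPKM at D12 (log2 fold change 0.96, SE 0.16, adjusted p = 0.0745). Over the 14 tested genes of the growth factor axis of thymic epithelium the median was 0.38, and 0 were called. At an unadjusted p under 0.05, 3 were higher (6.61% of all genes). Ccnd2 (cyclin D2), a driver of G1 phase, was among these, at 22.5, 20.2 and 21.2 FPKM at D6, 62.8 at D8, 46.3 at D10 and 43.3, 35.2 and 36.2 FPKM at D12 (log2 fold change 0.72, adjusted p = 0.301).

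Of the keratins, Krt14, Krt15 and Krt19 had higher values at D12, and Krt5, Krt8 and Krt18 overlapped between the days. Krt14, the basal keratin partner of Krt5, had 149, 211 and 243 FPKM at D6, 247 at D8, 400 at D10 and 294, 387 and 484 FPKM at D12 (log2 fold change 1.04, SE 0.29, adjusted p = 0.195). Krt19, a keratin of simple and progenitor epithelia, had 48.3, 70.9 and 37.9 FPKM at D6 and 91.6, 97.5 and 122 FPKM at D12 (log2 fold change 1.05, adjusted p = 0.19). Krt15 ranged from 7.83 to 10.3 FPKM at D6 and from 15.1 to 45.3 FPKM at D12 (adjusted p = 0.351). None of these 3 overlapped between the days. Krt5 (1103 to 1759 against 1421 to 2041 FPKM) did overlap, as did the cTEC keratins Krt8 (2148 to 3456 against 2631 to 3270 FPKM) and Krt18 (3441 to 7832 against 5464 to 6585 FPKM). Of the 14 keratin and junction genes 0 were called. At an unadjusted p under 0.05, 5 were higher and 0 lower (6.61% and 4.01% of all genes). The median of 0.31 was 0.12 without D6 replicate 3.

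Acute-phase and innate defence genes had the highest median among the functional lists, 1.03 over 11 tested genes. None was called. At an unadjusted p under 0.05, 6 were higher and 0 lower (6.61% and 4.01% of all genes), and 5 were higher without overlap (9.28%). Serpina3n, a secreted inhibitor of serine proteases, had 9.59, 6.51 and 7.24 FPKM at D6, 11.97 at D8, 29.6 at D10 and 28.03, 22.5 and 28.6 FPKM at D12 (log2 fold change 1.87, SE 0.50, adjusted p = 0.19). C3, the central complement component, had 313, 374 and 255 FPKM at D6 and 404, 634 and 640 FPKM at D12 (log2 fold change 0.88, SE 0.20, adjusted p = 0.154). D12 replicate 1 was the lowest of the D12 samples for C3. Outside this list, Apoe, a lipid carrier also made by macrophages, had 842, 1336 and 736 FPKM at D6 and 1591, 2159 and 1520 FPKM at D12 (log2 fold change 0.93, adjusted p = 0.155). Apoe belongs to the lipid uptake and storage list, which had a median of -0.01 with 5 genes above and 6 below 0. The median of the acute-phase list was 0.59 without D12 replicate 3 and 1.84 without D12 replicate 1.

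The 12 named lower genes covered splicing, chromatin, cell surface and signalling functions. Rbm20, a splicing factor, had 9.66, 9.68 and 12.8 FPKM at D6 and 4.69, 3.52 and 3.73 FPKM at D12 (log2 fold change -1.14, SE 0.21, limma-voom adjusted p = 0.0745). Cbx3, the heterochromatin protein HP1 gamma, had 35.7, 45.9 and 53.3 FPKM at D6, 21.5 and 18.1 FPKM at D8 and D10, and 14.4, 22.1 and 18.6 FPKM at D12 (log2 fold change -1.25, SE 0.24, adjusted p = 0.119). Mreg (melanoregulin), which takes part in organelle transport, had 113, 130 and 218 FPKM at D6 and 63.6, 76.9 and 72.5 FPKM at D12 (log2 fold change -1.01, adjusted p = 0.154). In these 3 genes the D8 and D10 samples were nearer to D12 than to D6. Tmem181a had 11.99 to 14.2 FPKM at D6 and 6.11 to 7.33 FPKM at D12 (log2 fold change -0.93, adjusted p = 0.0745). Gpc1 (glypican 1), a heparan sulphate proteoglycan of the cell surface, had 82.6, 82.2 and 107 FPKM at D6 and 50.2, 53.5 and 54.0 FPKM at D12 (log2 fold change -0.66, adjusted p = 0.149). Pkhd1l1, Mpp7, Ppip5k2, Abi2, Erbin, Rassf2 and Dll4 completed this group, with log2 fold changes from -0.98 to -0.68 and adjusted p from 0.149 to 0.154.

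Of the cell cycle genes, none passed the test. The 24 genes of DNA replication and S phase had a median of -0.20, with 4 above and 20 below 0, and the 24 genes of mitosis and G2/M a median of 0.31, with 19 above and 5 below 0. Neither list had a gene called or a gene with an unadjusted p under 0.05. Without overlap 4 genes of S phase were lower and 3 of mitosis higher, against 9.81% lower and 9.28% higher among all genes. Among these 3, Cenpf had 0.75 ± 0.07 FPKM at D6 and 2.16 ± 0.269 FPKM at D12 (SD, n = 3). Its log2 fold change from counts was -0.21, so it is also among the 5 below 0. Pcna, the sliding clamp of DNA polymerase, had 57.0, 58.0 and 58.5 FPKM at D6, 46.5 and 38.7 FPKM at D8 and D10, and 42.4, 41.6 and 47.6 FPKM at D12 (adjusted p = 0.551). Mki67, a marker of cycling cells, stood at 4.06 to 5.30 FPKM at D6 and at 3.88 to 6.96 FPKM at D12 (adjusted p = 0.984). The mitosis median ranged from 0.11 to 0.54 when single samples were left out.

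Circadian clock genes lay lower at D12. Of 15 genes, 13 had a log2 fold change below 0 (median -0.44), and 0 were called. At an unadjusted p under 0.05, 1 was lower (4.01% of all genes), and 8 were lower without overlap (9.81%). Tef, an output factor of the clock, had 60.6, 43.3 and 67.6 FPKM at D6 and 34.4, 28.9 and 38.2 FPKM at D12 (log2 fold change -0.74, SE 0.31, adjusted p = 0.389). Its relative Dbp had 85.5, 83.1 and 80.9 FPKM at D6, 88.4 at D8, 39.5 at D10 and 55.0, 44.0 and 62.4 FPKM at D12 (adjusted p = 0.73). The D8 sample of Dbp lay at or above D6 and the D10 sample below D12. The labels give no hour of the day at which the thymi were taken, so time of day and day postpartum cannot be told apart for these genes. Without D6 replicate 3 the median was -0.42.

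Lists of metabolism, hormones and stress had small or unstable differences. Cholesterol synthesis genes had a median of -0.33 over 15 genes, with 0 called, and Lss (lanosterol synthase) had 69.5, 34.2 and 30.3 FPKM at D6 and 27.6, 28.1 and 25.4 FPKM at D12 (log2 fold change -0.91, adjusted p = 0.195). The list median was -0.03 without D6 replicate 1, the sample with the highest Lss, and -0.63 without D6 replicate 2. The progesterone receptor Pgr, which mediates involution of the thymus in pregnancy, had 4.88, 6.67 and 8.36 FPKM at D6 and 6.25, 6.70 and 3.93 FPKM at D12 (adjusted p = 0.941). The glucocorticoid receptor Nr3c1 had 36.3 to 39.8 FPKM at D6 and 31.7 to 34.8 FPKM at D12 (adjusted p = 0.681). Steroid receptors had a median of -0.07 (8 genes) and steroid-induced genes 0.03 (12 genes), with 0 called in either. Immediate-early genes had a median of -0.60 over 16 genes, which was -0.05 without D6 replicate 3. Mitochondrially encoded transcripts had a median of 0.40 over 13 genes, which was -0.08 without D6 replicate 3, 0.62 without D6 replicate 1 and 0.70 without D6 replicate 2. Among the remaining signalling and housekeeping lists the medians were 0.27 (endoplasmic reticulum chaperones), 0.25 (hypoxia and glycolysis), 0.15 (BMP and TGF-beta), 0.12 (lysosome), 0.04 (WNT), 0.03 (Notch receptors and targets) and -0.01 (lipid uptake), with 0 genes called in each. Leaving out single samples turned the sign of the medians for the steroid receptors, steroid-induced genes, BMP and TGF-beta, WNT, Notch, lipid and lysosome lists, and gave 0.08 (without D12 replicate 3) to 0.39 (without D12 replicate 1) for hypoxia and glycolysis. Without D6 replicate 3 the medians were 0.126 (steroid-induced genes), -0.003 (lysosome), -0.036 (Notch) and -0.042 (lipid uptake).

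Markers of other cell types were higher in the D12 sorts. Thymocyte markers, 22 genes, summed to 164.9, 167 and 143 FPKM at D6, 237 at D8, 180 at D10 and 234.0, 224 and 267 FPKM at D12. The groups did not overlap, and the mean of the log2 sums differed by 0.61 (two-sided exact permutation test, p = 0.1, the smallest p that 3 against 3 allows). Of these markers 21 had a log2 fold change above 0 (median 0.60), and 0 were called. At an unadjusted p under 0.05, 4 were higher (6.61% of all genes), and 9 were higher without overlap (9.28%). Lck, a kinase of the T cell receptor, had 15.5, 16.1 and 13.6 FPKM at D6 and 21.9, 23.8 and 25.1 FPKM at D12 (adjusted p = 0.299). Ptprc (CD45), against which the cells were gated, read 1.14, 1.89 and 3.06 FPKM at D6 and 2.25, 1.71 and 3.67 FPKM at D12. More cells of a type and more RNA per cell cannot be told apart in these sorted bulk samples, and the part of thymocyte RNA in the other differences was not tested.

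The 12 mTEC markers summed to 1828, 2557 and 2367 FPKM at D6, 3081 at D8, 5008 at D10 and 2852, 4339 and 5496 FPKM at D12, most of it Ccl21a, against 8997 to 13316 FPKM in the mTEC samples. All 11 tested ones had a log2 fold change above 0 (median 0.91), and 0 were called. Aire and Fezf2, which define medullary cells, had 0.81 to 3.41 and 21.4 to 33.3 FPKM at D6 and 2.63 to 6.39 and 26.4 to 38.1 FPKM at D12. The summed mTEC markers were lowest in D12 replicate 1 and highest in D12 replicate 3 of the D12 samples, and so was Sprr2a2. Of the 12 named higher genes, all but Sparc and Igfbp4 were lowest in D12 replicate 1, as were Bst2, Krt14, Krt19 and C3. Other genes with higher values were lowest in another sample. Sparc, Igfbp4 and Apoe were lowest in D12 replicate 3, and Serpina3n in D12 replicate 2. Fibroblast and mural markers summed to 179, 244 and 217 FPKM at D6, 277 at D8, 544 at D10 and 377, 534 and 398 FPKM at D12, all 8 tested ones with a log2 fold change above 0 (median 1.15) and 0 called. Dcn (decorin), a matrix proteoglycan, had 99.0, 138 and 128 FPKM at D6 and 254, 316 and 192 FPKM at D12 (adjusted p = 0.214). Col1a1, a defining fibroblast collagen, stayed at 0.13 to 1.91 FPKM at D6 and 0.94 to 3.36 FPKM at D12, and Pdgfra and Pdgfrb were below the level filter. The part of mTEC and fibroblast RNA in the Sprr2a2, matrix, keratin, acute-phase and interferon values was not tested.

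Other cell types gave little signal. The 17 macrophage and dendritic cell markers summed to 14.9 to 23.4 FPKM at D6 and 26.2 to 32.3 FPKM at D12 (median 1.07 over the 10 tested), the 8 endothelial markers to 1.16 to 2.45 and 2.10 to 2.75 FPKM (median 1.01 over 3), and the 6 B cell markers to 7.35 to 32.3 and 14.2 to 23.3 FPKM (median 1.46 over 2). Erythroid markers were at 0, 0 and 0.16 FPKM at D6 and at 0.86, 3.92 and 2.43 FPKM at D12. Of all these markers 0 were called. Leaving out 1 sample turned the endothelial median to -0.11 (without D6 replicate 1) and the B cell median to -0.10 (without D6 replicate 2), and lowered that of macrophages to 0.67 (without D6 replicate 2).

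**Figure D4:**
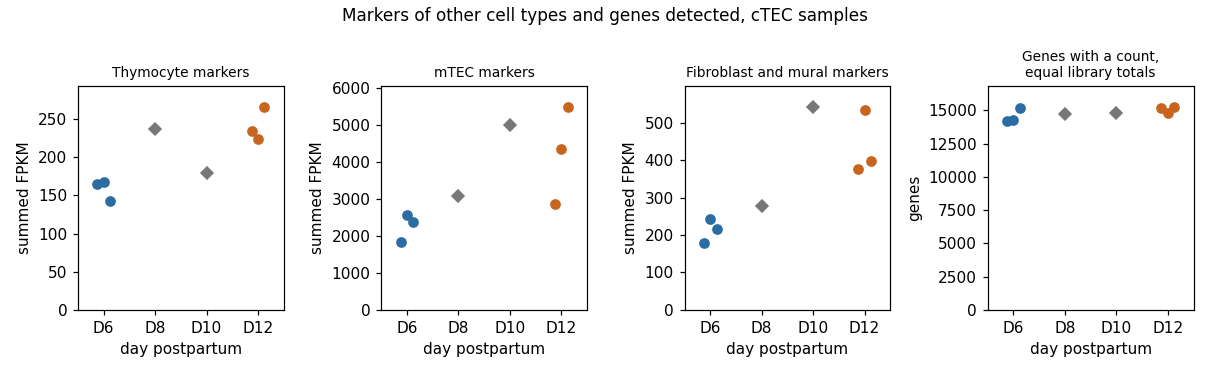
Summed FPKM of the thymocyte, mTEC and fibroblast markers, and the number of genes with a count when every library was drawn down to the same total (vertical axes, from 0), in single cTEC samples by day postpartum (horizontal axes). Blue and orange points are the 3 samples of D6 and of D12, and grey diamonds the single samples of D8 and D10. The 3 marker sums lie higher at D12 without overlap, and the numbers of genes detected overlap only through D6 replicate 3.

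The D10 sample was closer to D12 than to D6 for most genes of each set below, while the D8 sample varied by set. All sets were picked for D6 and D12 values that did not overlap, and the share over all genes is not given. On the scale of log2(FPKM + 0.5), the D8 sample was nearer to the D12 mean for 10 of the 12 named higher genes and 9 of the 12 named lower genes, and the D10 sample for all 12 of each. Among the genes whose groups did not overlap, the D8 sample was nearer to D12 for 59% of the 1470 higher and 67.1% of the 1555 lower genes, and the D10 sample for 76.5% and 80.5%. For the 13 interferon-stimulated genes without overlap, D8 was nearer to D12 in 7 and D10 in 11, and for the 8 clock genes in 3 and 7. Each of these days had 1 sample, so no error can be given.

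Few genes differed in their course between the 2 epithelial lineages, and their count depended on the processing. cTEC and mTEC samples of a day may come from the same mice, since some titles share numbers, and the test below treats them as separate. Of 18394 genes tested for a difference between cTECs and mTECs in the D12 to D6 change, 7 passed an adjusted p of 0.05 (0.0381%), and 1186 had an unadjusted p under 0.05 (6.45%). All 7 had the more positive value in cTECs. In mTECs alone 12 of 17743 genes passed (0.0676%). Prss16 held its cTEC level of 2845 ± 251 FPKM at D6 and 2735 ± 286 FPKM at D12 (SD, n = 3), while in mTECs it fell from 242, 624 and 377 FPKM to 179, 60.1 and 63.1 FPKM (mTEC log2 fold change -2.31, adjusted p = 0.0218). The difference between the lineages was 2.38 (SE 0.43, limma-voom adjusted p = 0.0361). Fn1 (fibronectin), a matrix glycoprotein, had 105, 92.4 and 111 FPKM in cTECs at D6 and 137, 137 and 116 FPKM at D12. In mTECs it fell from 123, 178 and 128 FPKM to 85.1, 48.9 and 77.7 FPKM (mTEC log2 fold change -1.44, adjusted p = 0.0106), and the difference was 1.79 (SE 0.29, adjusted p = 0.0151). The cTEC and mTEC values of Fn1 were in reverse order on the 2 days.

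Mmp9, a matrix metalloprotease, had 41.5 ± 4.96 FPKM in cTECs at D6 and 61.4 ± 5.43 FPKM at D12, against 144 ± 11.8 and 90.4 ± 25.1 FPKM in mTECs (difference 1.36, SE 0.27, adjusted p = 0.0477). Trpm2, a calcium channel, had 28.6 ± 1.57 and 22.1 ± 2.42 FPKM in cTECs and fell in mTECs from 30.2 ± 12 to 9.82 ± 2.08 FPKM (difference 1.68, SE 0.33, adjusted p = 0.0477). Synm (synemin, an intermediate filament protein), named after its values were seen, had 106 ± 2.15 and 110 ± 8.50 FPKM in cTECs and fell in mTECs from 50.3 ± 12.1 to 23.2 ± 4.02 FPKM (difference 1.30, SE 0.24, adjusted p = 0.0361). Of the other cortical genes, Ccl25 and Tbata fell in mTECs (log2 fold changes -1.67 and -1.86, adjusted p = 0.0283 and 0.0218) and Psmb11 had a log2 fold change of -3.23 there (adjusted p = 0.0509), but the difference between lineages had adjusted p of 0.151, 0.122 and 0.122. For Foxn1 the difference was 1.07 (SE 0.50, adjusted p = 0.753). The interferon-stimulated genes Isg15 and Irf7 had differences of 0.76 and 0.44 between the lineages (adjusted p = 0.767 and 0.95). Summed cTEC markers in the mTEC sorts went from 3538, 6572 and 4838 FPKM to 2252, 1265 and 1543 FPKM. The part of cTEC RNA in the mTEC values of Prss16, Fn1, Mmp9, Trpm2 and Synm was not tested.

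**Figure D5:**
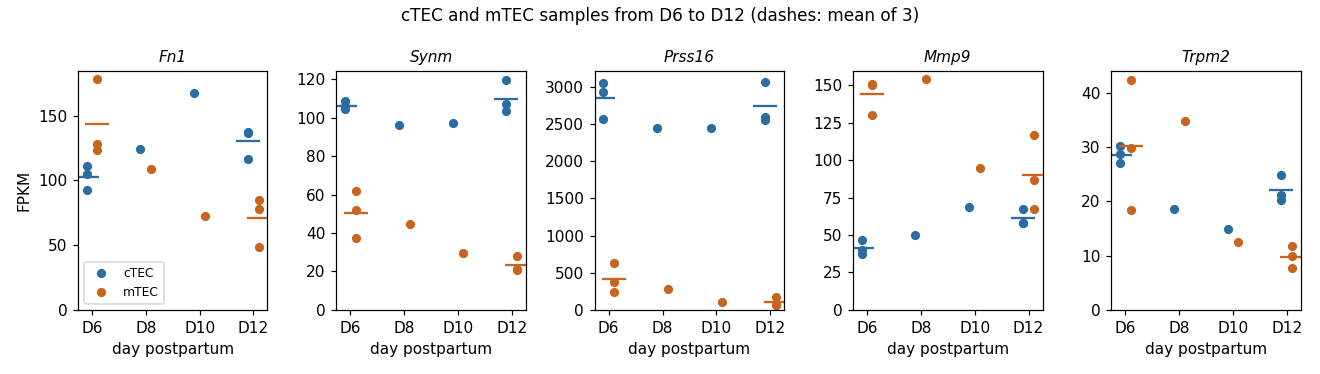
FPKM (vertical axes, from 0) of 5 genes whose D12 to D6 difference differed between the lineages, in single cTEC (blue) and mTEC (orange) samples by day postpartum (horizontal axes). Points are samples, with 3 at D6 and at D12 and 1 at D8 and at D10 for each lineage, and dashes are means of 3. The mTEC values lie lower at D12 in all 5 genes, while the cTEC means are higher at D12 in Fn1, Mmp9 and Synm and lower in Trpm2 and Prss16.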

How the data were processed

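RNA of sorted thymic epithelial cells from B6.SJL females was sequenced (56 samples, 28 of them cTECs). Per the submitters' processing notes, bcl2fastq 2.20, Trimmomatic 0.35, STAR 2.5.1b and RSEM 1.2.28 were used with GRCm38. The authors deposited RSEM expected counts, which are not normalized, for each gene and sample. They also deposited FPKM, scaled by RSEM to gene length and library size, used here for levels. TPM values made by the authors with RSEM, scaled to a fixed library total, were used only as an alternative for the thymocyte marker sum. Symbols were matched for 50376 of 50600 gene IDs.

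Expected counts were rounded and genes with a mean of at least 0.5 FPKM over the 28 cTEC samples were tested with limma-voom (limma 3.58.1, TMM from edgeR 4.0.16, R 4.3.3), with one mean per time point, the contrast D12 minus D6 and Benjamini-Hochberg adjustment, called at 0.05. The fit across lineages used all 56 samples. Alternatives used edgeR's quasi-likelihood test, DESeq2 1.42.0, other filters, scalings and sample sets. Tested on simulated data, limma-voom on the 28 samples, DESeq2 and the fits of 6 samples made more false calls than their threshold allows. Marker sums were compared with an exact permutation test. Named genes were members of 34 lists, genes the study names, and the 12 largest differences in each direction (called genes first, then by p) with at least 5 FPKM and no overlap. The members and lists were chosen with earlier results of these data known. Each replicate came from 1 mouse, and cTEC and mTEC samples may share mice. Figures used Python 3.11.15, NumPy 2.4.6, pandas 2.3.3 and matplotlib 3.10.9. The strand setting of the counting is not given in the sources used here, so overlapping genes may share reads.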

Additional observations from a re-analysis of the deposited data

Results flagged for a closer look

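The D12 to D6 difference differed between cTECs and mTECs for 7 genes in a limma-voom test of the difference itself. The log2 difference (cTEC minus mTEC) was 1.791 for Fn1 (adjusted p = 0.0151), 1.297 for Synm (0.0361), 2.377 for Prss16 (0.0361), 1.364 for Mmp9 (0.0477) and 1.681 for Trpm2 (0.0477). For 2 genes of low level, named after their values were seen, the fitted values were 9.092 (Gm45200, adjusted p = 0.0472) and 11.068 (Gm1866, a processed pseudogene, adjusted p = 0.0472). Both are listed at 0 FPKM in all 3 mTEC samples of D12, so these fitted values depend on the prior count and are no bound. Mean levels went from 0 to 0.8 FPKM in cTECs and from 0.633 to 0 FPKM in mTECs for Gm45200, and from 0.0667 to 3.23 FPKM and from 6.53 to 0 FPKM for Gm1866.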

How the results depend on the processing

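The single call between D12 and D6 depended on the processing. Against 1 gene in limma-voom, 2 were called by edgeR's quasi-likelihood test (937 at an unadjusted p under 0.05), 90 by DESeq2, 30 with sample quality weights, 124 with no filter on low values (0 of them Sprr2a2) and 9 at an adjusted p of 0.1. It was 0 with limma-trend at a pseudocount of 0.5 (646 at an unadjusted p under 0.05) or 0.1 (669), 0 with the 6 samples alone (2473), 0 at a fold of 2 with an adjusted p of 0.01, and 0 without the 4 libraries that stood apart (1715), an alternative chosen after seeing the data. Leaving out single samples gave 0 to 51 genes, with 51 without D12 replicate 1, 4 without D6 replicate 2, 2 without D12 replicate 2 and 0 without D6 replicate 1 or 3. With a replicate block on the 6 samples 146 genes were called, but same-numbered samples correlated by only 0.067, 0.011 and 0.132 and D12 replicate 2 correlated best with D6 replicate 3 (0.014), so the numbers do not pair the samples, and the sample titles number D6 differently. Sprr2a2 kept its direction in all 21 alternatives (log2 fold change 2.07 to 2.99) and was called in 14, with an adjusted p from 1.64e-10 to 0.793. The count of 7 genes that differed between lineages was 0 with the quasi-likelihood test (676 at an unadjusted p under 0.05), 0 at a fold of 2 with an adjusted p of 0.01, 7 with the mouse (time point and title number) as a random effect, 5 with the replicate block, and 0 to 10 without single samples (0 without D12 replicate 1 or 2, 1 without D6 replicate 1, 4 without D12 replicate 3, 10 without D6 replicate 3). The thymocyte marker sum kept its direction throughout.

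Of 88 named genes, 81 kept their direction in all alternatives. The log2 fold change turned without the 4 libraries for Foxn1 (-0.021) and Fos (0.148), and with no filter for Pax1 (-0.036), Cxcl12 (0.025), Psmb11 (0.075) and Fos (0.344). Without single samples it ranged from -0.068 to 0.544 for Foxn1, -0.024 to 0.406 for Pax1, -0.111 to 0.067 for Prss16, -0.369 to 0.128 for Psmb11, -0.326 to 0.025 for Pgr and -0.736 to 0.105 for Fos. The cause was not tested. D12 replicate 2 had the fewest counts (6470058), which limits the precision of low genes, and drawing all cTEC libraries down to the smallest total, also chosen after seeing the data, still called 1 gene.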
